A study of Homo sapiens with 12 samples.

Results

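Pyruvate entry and the tricarboxylic acid cycle were followed through 34 nuclear-encoded genes, chosen by name from the 60708 rows of each gene count table. Every one of the 34 symbols was found as 1 row in each table, and all 34 passed the filter on low counts in both comparisons. RNA was sequenced from HCT116 cells, a human colorectal carcinoma line, in 12 libraries of 4 groups with 3 replicates each. Cells were treated for 24 h with oligomycin A (OA), which blocks mitochondrial ATP synthase, or with tunicamycin (TN), which blocks protein N-glycosylation and stresses the endoplasmic reticulum. Each stressor was compared with DMSO-treated libraries of its own, to ask how this group of genes responded to mitochondrial stress and to endoplasmic reticulum stress. The labels give 5 µg/mL for both OA and TN, the methods of the study give another dose for OA, and the values therefore belong to a dose that is not certain. All libraries came from 1 cell line, and the labels call the replicates biological without saying how the cultures were separated, so that p-values measure the spread between these libraries only.

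Pyruvate made by glycolysis in the cytosol crosses the inner mitochondrial membrane through the mitochondrial pyruvate carrier. Inside, the pyruvate dehydrogenase complex turns it into acetyl-CoA, and this step is switched off by kinases and on again by phosphatases that act on the complex. The cycle then oxidizes acetyl-CoA by way of citrate, isocitrate, 2-oxoglutarate, succinyl-CoA, fumarate, malate, and oxaloacetate, which yields NADH for the respiratory chain. Pyruvate carboxylase refills the cycle, whereas malic enzymes and ATP citrate lyase draw carbon out of it.

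Library totals ranged from 9884124 to 24983573 counts, and the 34 genes together took between 0.203% and 0.513% of them. A single noncoding RNA, RN7SL1, took 12.9% ± 4.79 (SD, n = 3) of the counts with OA and 7.12% ± 1.05 (SD, n = 3) in its DMSO controls, and 10.8% ± 2.15 with TN and 6.68% ± 0.716 in its controls (exact permutation, two-sided p = 0.1 for each, which is the lowest value possible for 3 against 3 libraries). OA replicate 2 and TN replicate 1 stood apart, with RN7SL1 shares of 17.9% and 13.3% and the lowest TMM normalization factors, 0.732 and 0.796. In 10 of the 12 libraries, the deviation of a gene from its group mean went with the GC content of its transcript, with a correlation across genes above 0.1 in size and a range from -0.71 to 0.70. These correlations describe each library, and genes are not independent replicates. The colorectal origin was checked on 8 epithelial markers, of which 6 reached a mean of 1 CPM in each group, with a summed level of 4089 to 8499 CPM per library, while CEACAM5 was at 0 throughout. Of 6 fibroblast markers, 1 reached a mean of 1 CPM in each group and the summed level stayed at 12.9 CPM or less, and none of 6 leukocyte and 3 endothelial markers did.

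**Figure D1:**
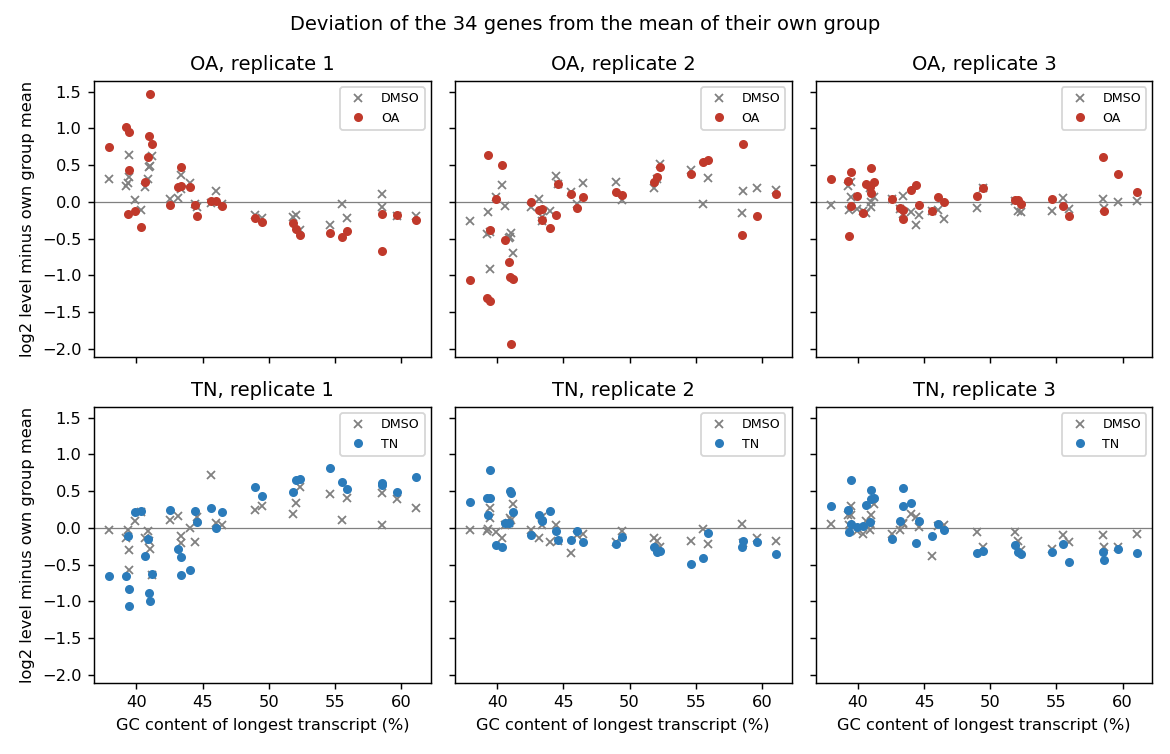
Deviation of each of the 34 genes from the mean of its own group (y axis, log2) plotted over transcript GC content (x axis, %, longest transcript), with 1 panel per replicate number and stressor. Crosses are DMSO libraries and filled circles are OA or TN libraries, and libraries that share a number lean the same way except in the panel of OA replicate 3, with genes of low GC content lowest in OA replicate 2 and TN replicate 1.

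With OA, 25 of the 34 genes had a log2 fold change below 0, and their median was -0.40, compared with -0.02 over all 14681 genes tested. With TN, 22 of the 34 were below 0 with a median of -0.30, compared with -0.03 over all 14432 genes tested. Fumarate hydratase (FH) was the only one of the 34 with an adjusted p under 0.05 with OA, and it was lower. With TN, FH was lower, and the NADP-dependent enzymes isocitrate dehydrogenase 1 (IDH1) and malic enzyme 1 (ME1) were higher. Adjusted p here and below comes from the quasi-likelihood test of edgeR, adjusted over all genes tested in the comparison by the Benjamini-Hochberg method, and a gene is called when it is under 0.05.

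These counts stand beside the share of all genes that were called. With OA, 658 genes were called, 4.48% of those tested, of which 253 or 1.72% were lower and 405 or 2.76% were higher, and 1 of the 34 genes was among them. With TN, 1009 genes were called, 6.99% of those tested, of which 482 or 3.34% were lower and 527 or 3.65% were higher, and 3 of the 34 were among them. At an unadjusted p under 0.05, 12 of the 34 passed with OA and 7 with TN, next to 23.3% and 24.3% of all genes.

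Most libraries with the same replicate number deviated together, so a block for the replicate number was fitted as well. For replicate 3 of OA the correlation was only 0.11, below the 0.17 of DMSO replicate 3 with OA replicate 1. Numbers 2 and 3 of TN also deviated together across numbers (0.44 and 0.51). Values with the block therefore hold only if equal numbers mark pairs, which the labels do not state. With the block, 13 of the 34 genes were lower and 4 higher with OA, while 15% of all genes were called lower and 11.7% higher. For TN, the block gave 11 lower and 3 higher genes, while 15.3% of all genes were called lower and 11.8% higher. Without any model, 9 of the 34 genes were lower in every OA library than in every DMSO library and 4 were higher, and the same held for 15.5% and 16.3% of all genes. With TN, 10 were lower and 3 were higher without overlap, compared with 16.8% and 15.9% of all genes.

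The balance of higher and lower genes changed with the settings. With an offset in each library for the GC content of transcripts, 7 of the 34 genes were lower and 4 higher with OA, while 7.04% of all genes were called lower and 8.26% higher, and with TN 0 were lower and 3 higher (IDH1, ME1, and PC), while 8.72% and 10.7% of all genes were. Of the genes called with the block, MPC2 and SUCLG2 with both stressors and DLD with OA were not called when the GC offset was added to the block, while IDH2 and OGDHL with TN were called only then and without TN replicate 1. With scaling to ACTB, 0 of the 34 were called lower and the same 3 genes higher with each stressor, next to 0.572% of all genes lower and 9.13% higher with OA, and 1.52% and 8.3% with TN. Leaving out TN replicate 1 raised the calls with TN from 3 to 11 of the 34, and leaving out OA replicate 1 raised those with OA from 1 to 3, whereas 0 were called without any of the DMSO libraries, OA replicate 3, or TN replicate 2 or 3. The counts over all genes moved as well, from 1009 to 2361 without TN replicate 1 and from 658 to 1179 without OA replicate 1, while 3 to 5 genes in all were called without a DMSO library of OA. Over all genes, 91 were called without OA replicate 3, and 301 and 310 without TN replicate 2 and 3. Without a DMSO library of TN, 151 to 473 were called. With so few calls over all genes, 0 of the 34 is not a result about these genes. The direction of the group rests on the scaling, since scaling to ACTB, which moved the median of all genes to 0.42 with OA and 0.30 with TN, left 16 of the 34 genes below 0 and 18 above 0 in both comparisons. Relative to those medians, the median of the 34 genes was still lower, at 0.026 with OA and 0.053 with TN.

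**Figure D2:**
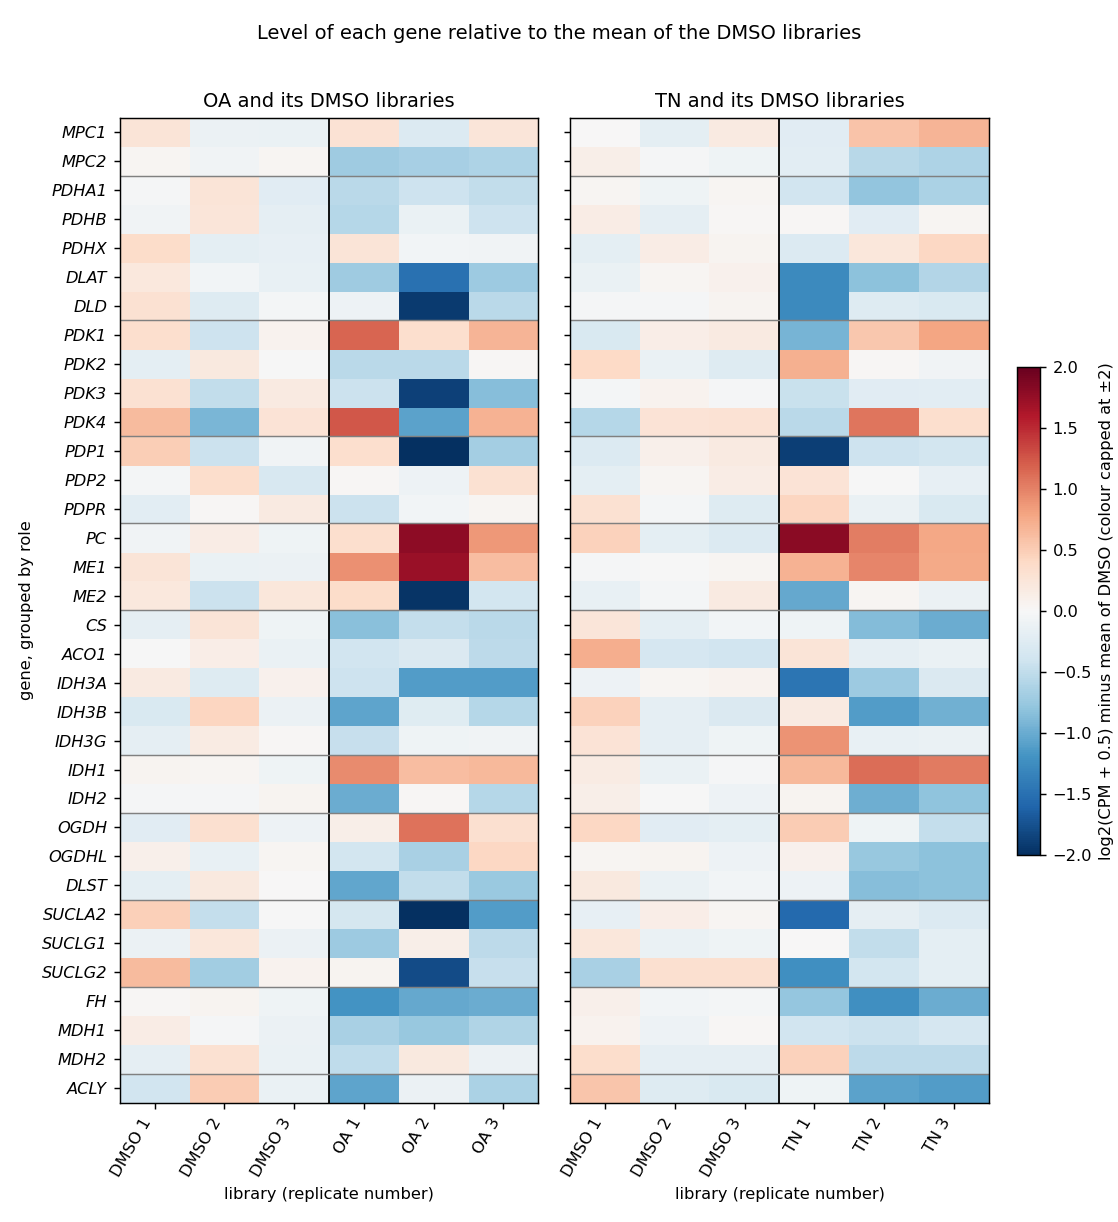
Level of each of the 34 genes in each library as log2(CPM + 0.5) minus the mean over the DMSO libraries of the same comparison, with genes grouped by role (rows) and libraries in columns. Blue is lower and red is higher than the DMSO mean, FH is blue in all 6 treated libraries, and IDH1, ME1, and PC are red in all 6.

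FH hydrates fumarate to malate in the cycle and, in the cytosol, clears fumarate made elsewhere. The gene lies on the minus strand of chromosome 1 (hg38, 241497511 to 241519799, ENSG00000091483.8). Its level was 125, 128, and 115 CPM in the DMSO controls and 53.0, 59.8, and 61.4 CPM with OA. In the TN comparison, it was 135, 122, and 122 CPM with DMSO and 73.3, 53.8, and 63.3 CPM with TN. All 6 treated libraries lay far below their controls, and the groups did not overlap. FH fell by 1.08 on the log2 scale with OA (SE 0.21, adjusted p = 0.0365, edgeR) and by 0.99 with TN (SE 0.20, adjusted p = 0.0305, edgeR), that is, it was 52.6% and 49.8% lower. The adjusted p was 0.0032 and 0.0024 with the replicate block. The call ended under 2 of the other settings, since scaling to ACTB gave log2 fold changes of -0.63 and -0.67 (adjusted p = 0.176 and 0.103) and an offset for GC content gave -0.56 and -0.55 (adjusted p = 0.348 and 0.383). When the offset was combined with the block, the fall was 0.64 and 0.70 on the log2 scale with adjusted p of 0.0396 and 0.0169. Scaling to ACTB also moved the median of all genes, to 0.42 with OA and 0.30 with TN. The offset used the GC content of the longest transcript, which for FH has 5122 bases and 39.91% GC. The canonical FH transcript has 1791 bases. FH deviated from its group mean by -0.13, 0.04, and 0.08 with OA, and by 0.22, -0.23, and 0.007 with TN (log2, replicates 1 to 3). Whether the offset suits FH was not tested.

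IDH1 makes 2-oxoglutarate and NADPH from isocitrate in the cytosol and in peroxisomes. The gene lies on the minus strand of chromosome 2 (hg38, 208236229 to 208266074, ENSG00000138413.14). Its level was 166, 163, and 149 CPM in the DMSO libraries and 306, 246, and 251 CPM in the OA libraries. Around TN, the levels were 248, 201, and 218 CPM with DMSO and 348, 481, and 454 CPM with TN. All 6 treated libraries lay above their controls, OA replicate 1 highest with OA and TN replicate 1 lowest with TN. The log2 fold change was 0.75 with OA (SE 0.21, adjusted p = 0.0872, edgeR), which passed the threshold only with the block (adjusted p = 0.016), scaling to ACTB, DESeq2, or a GC offset. IDH1 rose by 0.95 on the log2 scale with TN (SE 0.21, adjusted p = 0.0389, edgeR), a 1.93-fold level. That call was lost with scaling to total counts, at 0.82 (adjusted p = 0.0795), and with scaling to total counts without RN7SL1, at 0.88 (adjusted p = 0.0624).

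ME1 oxidizes malate to pyruvate in the cytosol and yields NADPH. The gene lies on the minus strand of chromosome 6 (hg38, 83210402 to 83431051, ENSG00000065833.9). Its level was 61.7, 47.1, and 47.8 CPM in the DMSO controls and 98.5, 173, and 80.0 CPM with OA. In the TN comparison, the levels were 54.4, 54.9, and 57.3 CPM with DMSO and 90.2, 110, and 94.2 CPM with TN. Both sets of treated libraries lay above their controls, and OA replicate 2 was far above the other OA libraries. The log2 fold change with OA was 1.17 (SE 0.33, adjusted p = 0.0831, edgeR), with an adjusted p of 0.0122 with the block, and it was 0.78 without OA replicate 2. With the GC offset it was 1.90 (adjusted p = 0.0469), and ME1 with OA was also called by DESeq2, with scaling to ACTB, with no filter, and in 1 fit of all 12 libraries. The ME1 transcript has 39.33% GC, and ME1 was highest in OA replicate 2, where genes of low GC content were lowest. Whether the offset suits ME1 was not tested. Scaling to ACTB moved the median of all genes to 0.42 with OA. ME1 rose by 0.82 on the log2 scale with TN (SE 0.19, adjusted p = 0.0431, edgeR), a 1.77-fold level, and the adjusted p was 0.0060 with the block. The TN call was lost with scaling to total counts, at 0.68 (adjusted p = 0.0964), with total counts without RN7SL1 (adjusted p = 0.0728), with no filter (adjusted p = 0.102), and in 1 fit of all 12 libraries (adjusted p = 0.066).

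The calls were lost when most single libraries were left out. In these fits, the log2 fold change of FH ranged from -1.129 to -1.002 with OA and from -1.07 to -0.89 with TN, while its adjusted p reached 0.191 and 0.121. FH kept its call without OA replicate 1 or 2 and without TN replicate 1, and lost it without any of the DMSO libraries, OA replicate 3, or TN replicate 2 or 3. IDH1 and ME1 ranged from 0.85 to 1.12 and from 0.73 to 0.92 with TN, and both passed only in the fit without TN replicate 1 (adjusted p = 0.0056 and 0.0090). In every fit where a call was lost, the number called over all genes was lower too, as given above.

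**Figure D3:**
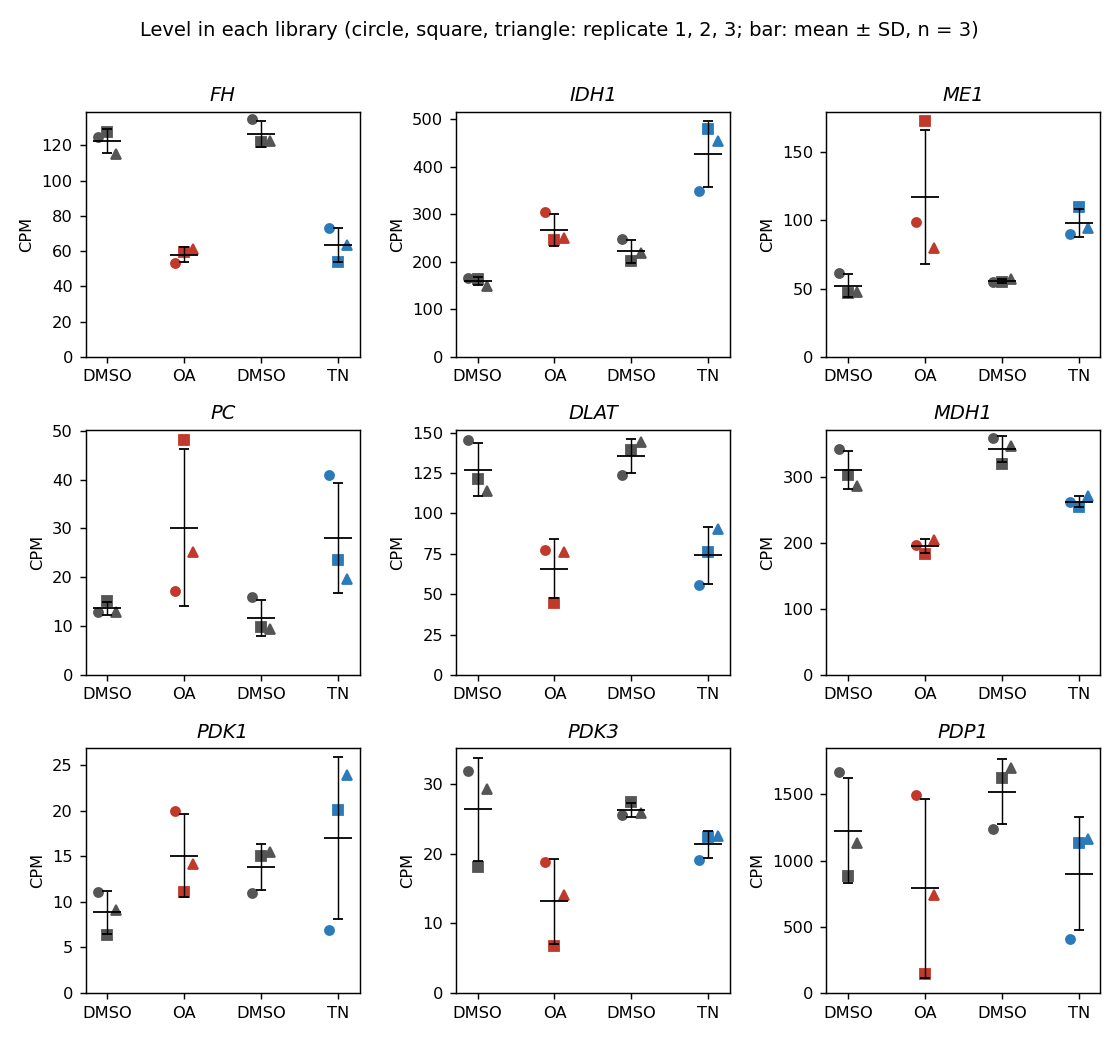
Level in CPM (y axes start at 0) of 9 genes in each library, with DMSO and OA libraries on the left and DMSO and TN libraries on the right (3 each). Points are libraries with the marker giving the replicate number, bars are the mean ± SD (n = 3), FH is at 115 to 135 CPM in the DMSO libraries and at most 73.3 CPM in the treated ones, and PDP1 is lowest in OA replicate 2 at 140 CPM.

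The 250 bases before the transcription start of these called genes are shown, since these are the members whose RNA level passed the test. The sequences are from RefSeq (GRCh38.p14) and read 5′ to 3′ on the gene's strand, which is the minus strand for all of them. FH lies at chr1:241519756-241520005, IDH1 at chr2:208255072-208255321, and ME1 at chr6:83431052-83431301. Capitals mark matches to TGACNNNGC, the core of the antioxidant response element, which was searched on both strands.
FH: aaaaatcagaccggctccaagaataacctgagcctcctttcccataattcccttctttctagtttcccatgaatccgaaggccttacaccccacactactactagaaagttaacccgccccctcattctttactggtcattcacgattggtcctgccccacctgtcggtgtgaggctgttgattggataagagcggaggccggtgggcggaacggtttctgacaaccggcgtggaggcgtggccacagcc
IDH1: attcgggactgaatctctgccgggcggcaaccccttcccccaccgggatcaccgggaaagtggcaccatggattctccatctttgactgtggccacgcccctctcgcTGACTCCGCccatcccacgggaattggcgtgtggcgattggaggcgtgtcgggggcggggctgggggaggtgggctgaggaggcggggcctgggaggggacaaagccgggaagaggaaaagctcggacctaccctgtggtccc
ME1: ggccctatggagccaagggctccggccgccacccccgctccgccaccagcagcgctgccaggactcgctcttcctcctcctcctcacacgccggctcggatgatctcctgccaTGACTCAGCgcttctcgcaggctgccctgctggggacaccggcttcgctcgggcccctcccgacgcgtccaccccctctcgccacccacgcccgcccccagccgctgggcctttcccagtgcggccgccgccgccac
The IDH1 and ME1 windows each hold 1 match, TGACTCCGC beginning 143 bases and TGACTCAGC beginning 137 bases before the start, and the FH window holds none.

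A window was found for 32 of the 34 genes, and OGDH and PDP1 had none. TGACNNNGC was in 5 of the 32 windows or 15.62%, those of IDH1, IDH3G, ME1, MPC1, and OGDHL, compared with 10.91% of all 35116 windows of the table. Of these genes, IDH3G and MPC1 were not called in either comparison under any setting run. OGDHL was not called in the main fit or with the block alone. With TN, OGDHL was called with the GC offset and the block, and in the fit without TN replicate 1. TGATGNAA, the C/EBP-ATF response element, was in 0 of the 32 windows and in 3.14% of all windows. TGCGCANGC, the motif of the nuclear respiratory factor NRF1, was in the windows of DLD, IDH3B, and IDH3G, 9.38% compared with 3.73%. ACGTG, the core of the hypoxia response element, was in 11 windows or 34.38%, compared with 18.51%, and CACGTG, the E-box that contains ACGTG, was in 5 or 15.62%, compared with 6.34%. The windows of the table include several per gene, and a match describes the letters only.

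The mitochondrial pyruvate carrier is a pair of proteins, MPC1 and MPC2, which work together. MPC2 was at 64.6, 59.7, and 64.5 CPM with DMSO and at 38.4, 39.6, and 40.8 CPM with OA, 37.1% lower and without overlap. For TN, MPC2 was at 73.9, 67.4, and 64.3 CPM with DMSO and at 58.9, 46.2, and 44.6 CPM with TN, again without overlap. The log2 fold changes were -0.67 (adjusted p = 0.114, 0.0229 with the block) and -0.46 (adjusted p = 0.221, 0.0487 with the block). MPC1 had overlapping groups in both comparisons and log2 fold changes of 0.10 (SE 0.29) and 0.39 (SE 0.29). MPC2 with OA was also called by DESeq2 (adjusted p = 0.0356) and in 1 fit of all 12 libraries (adjusted p = 0.0212).

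The core of the pyruvate dehydrogenase complex consists of the decarboxylase subunits PDHA1 and PDHB, the acetyltransferase DLAT, the dihydrolipoyl dehydrogenase DLD, and PDHX, which anchors DLD. In the fit of the 6 libraries of a comparison with TMM scaling, none of the 5 passed the edgeR test without the block, while 1 fit of all 12 libraries called DLAT with OA (adjusted p = 0.0423) and DESeq2 called DLAT with both stressors (adjusted p = 0.0383 with OA and 0.0264 with TN) and PDHA1 with TN (adjusted p = 0.0475). PDHA1 with TN was also called by edgeR with scaling to total counts (adjusted p = 0.0281), and both genes were called without TN replicate 1. DLAT had the lowest p of the group, with 146, 121, and 114 CPM in the DMSO libraries and 77.1, 44.5, and 75.9 CPM in the OA libraries. With TN it was at 55.5, 76.2, and 90.4 CPM, below the 124, 139, and 144 CPM of its DMSO libraries. DLAT was thus below its controls in all 6 treated libraries, with log2 fold changes of -0.95 (SE 0.28, adjusted p = 0.0936) and -0.87 (SE 0.23, adjusted p = 0.0691) that passed with the block (adjusted p = 0.0089 and 0.0049).

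PDHA1 was also below its controls throughout, at 102, 124, and 88.6 CPM with DMSO and 71.2, 77.4, and 73.7 CPM with OA. The TN comparison gave 110, 100, and 110 CPM with DMSO and 81.1, 61.4, and 68.5 CPM with TN, where the log2 fold change was -0.60 (adjusted p = 0.115, 0.0184 with the block). With OA, it was -0.50, and the block did not bring it past the threshold (adjusted p = 0.0789). DLD was at 156, 105, and 122 CPM with DMSO and at 117, 33.1, and 86.6 CPM with OA, and its log2 fold change of -0.69 (adjusted p = 0.368, 0.036 with the block) was -0.31 without OA replicate 2 and -1.11 without OA replicate 1. With TN, DLD was at 62.6 CPM in replicate 1 and at 126 and 122 CPM in the others, compared with 149, 149, and 157 CPM with DMSO. Both of its lowest values were in the libraries that stood apart. PDHB and PDHX had overlapping groups in both comparisons, with log2 fold changes of -0.37 and 0.03 with OA and -0.05 and 0.14 with TN.

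Pyruvate dehydrogenase kinases phosphorylate the complex and switch it off, and the 4 of them differ in tissue distribution and regulation. PDK1 was at 11.1, 6.40, and 9.10 CPM in the DMSO controls and at 19.99, 11.1, and 14.1 CPM in the OA libraries, with a log2 fold change of 0.77 (SE 0.34, adjusted p = 0.222, 0.0309 with the block). It was 0.49 without OA replicate 1 and 1.23 with the GC offset, where PDK1 was called (adjusted p = 0.0125). In each of the 3 numbered pairs, the OA library was higher, by 0.85, 0.79, and 0.63 on the log2 scale. With TN, PDK1 was at 6.95 CPM in replicate 1 and at 20.1 and 23.9 CPM in the others, around DMSO levels of 11.0, 15.0, and 15.5 CPM, and its log2 fold change was 0.30 (SE 0.44, adjusted p = 0.729). That value was -0.018 without TN replicate 3 and 0.72 without TN replicate 1.

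PDK3 had the highest level of the 4 kinases per length of the canonical transcript, which is 1741 bases long, while the longest annotated transcript of PDK3 has 12720 bases. In CPM, PDK3 was at 31.9, 18.0, and 29.2 CPM with DMSO and 18.8, 6.69, and 13.9995 CPM with OA, so that the groups overlapped, and each OA library was below the DMSO library of its number. The log2 fold change was -0.9999 (SE 0.41, adjusted p = 0.196, 0.0067 with the block), and it was -0.67 without OA replicate 2. Around TN, PDK3 was at 25.5, 27.4, and 25.8 CPM with DMSO and 19.1, 22.4, and 22.6 CPM with TN, with a log2 fold change of -0.30 (SE 0.20, adjusted p = 0.408). PDK2 was at 18.4, 24.1, and 20.9 CPM with DMSO and 14.4, 14.3, and 21.4 CPM with OA. For TN, its levels were 29.3, 20.04, and 18.4 CPM with DMSO and 36.3, 22.4, and 21.0 CPM with TN. Both PDK2 comparisons overlapped, with log2 fold changes of -0.35 and 0.23. Without single libraries, PDK2 ran from -0.57 to -0.19 with OA. With TN it ran from -0.023 without TN replicate 1 to 0.46 without DMSO replicate 1. PDK4 was low, at 1.78, 0.277, and 1.27 CPM with DMSO and 2.95, 0.200, and 1.87 CPM with OA. For TN, PDK4 was at 1.64, 3.36, and 3.41 CPM with DMSO and 1.69, 6.18, and 3.52 CPM with TN, and its groups overlapped in both comparisons, with log2 fold changes of 0.62 (SE 0.89) and 0.44 (SE 0.52).

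Shares among the kinases do not depend on the scaling between libraries, so the counts of PDK1 to PDK4 were divided by the length of the canonical transcript and expressed as a share of their sum. PDK1 made up 3.13%, 2.52%, and 2.69% in the DMSO controls and 8.20%, 8.82%, and 6.30% with OA. Its mean share was 2.78% ± 0.317 (SD, n = 3) with DMSO and 7.77% ± 1.31 (SD, n = 3) with OA, a difference of 4.99 percentage points without overlap (exact permutation, two-sided p = 0.1, again the smallest possible). PDK3 took 66.8% ± 8.35 with DMSO and 52.0% ± 9.76 with OA (n = 3, exact permutation p = 0.2). With TN, the share of PDK1 was 4.19% ± 0.919 with DMSO and 5.41% ± 2.89 with TN (n = 3, exact permutation p = 0.5), a difference of 1.22 percentage points that was 0.044 without TN replicate 3 and 2.83 without TN replicate 1. The share of PDK3 was 64.1% ± 3.94 with DMSO and 54.8% ± 5.81 with TN (n = 3, exact permutation p = 0.1). Over the 4 kinases and both stressors 8 shares were compared, and none could pass a threshold of 0.05 at this size. Shares can still move with the lean of a library by GC content, which was not tested here. The PDK2 transcript has 59.66% GC, and those of the other kinases have 39.43% to 40.88%. PDK2 took 47.5% in OA replicate 2 and 47.6% in TN replicate 1, and 24.7% to 39.9% in the other treated libraries. The canonical transcript of PDK1 is long, at 14072 bases, and without the division by length its share was 15.2% with DMSO and 32.5% with OA. The order of the kinases rests on these lengths, since with the longest transcript of each, a setting chosen after seeing the data, PDK2 took 67.7% and PDK3 22.3% in the DMSO controls of OA, and the share of PDK1 was 6.75% with DMSO and 14.3% with OA (n = 3, exact permutation p = 0.1).

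**Figure D4:**
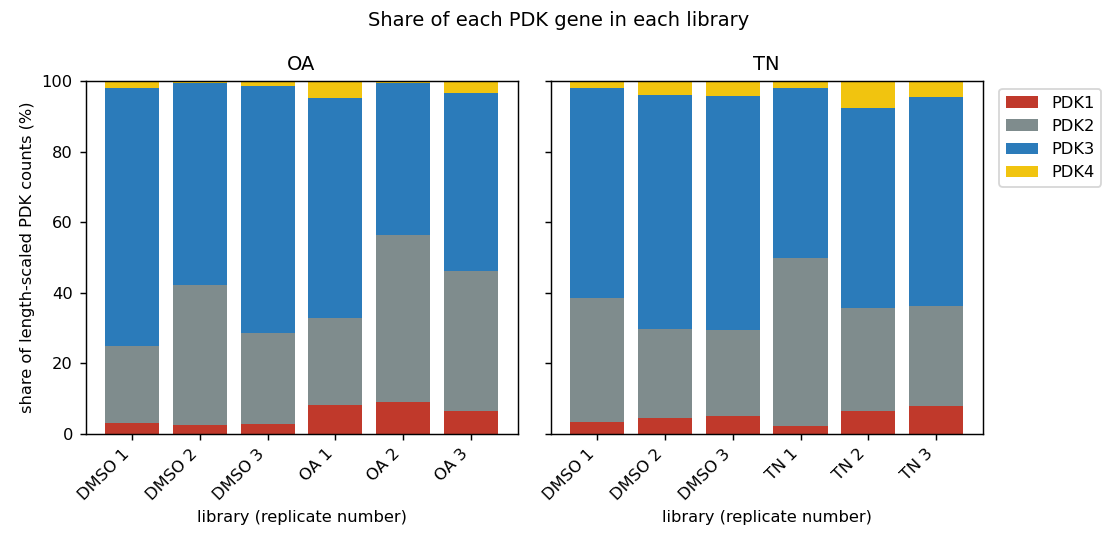
Share of each kinase gene in the length-scaled counts of PDK1 to PDK4 (y axis, %) in each library, with OA and its DMSO libraries on the left and TN and its DMSO libraries on the right. Stacked bars add up to 100%, PDK3 takes the largest share with canonical lengths in all libraries but OA replicate 2, and PDK1 takes 2.52% to 3.13% in the DMSO controls of OA and 6.30% to 8.82% with OA.

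The phosphatases PDP1 and PDP2 reactivate the complex, and PDPR is the regulatory partner of the catalytic subunit. PDP1 was the most abundant of the 34 genes per length, at 291 and 361 CPM per kb in the DMSO controls of OA and TN. It also varied widely between OA replicates, with 1491, 140, and 740 CPM next to 1665, 883, and 1131 CPM with DMSO. PDP1 alone made up 39.6% of the counts of the 34 genes in OA replicate 1 and 5.05% in OA replicate 2. In the TN comparison, it was at 409, 1130, and 1161 CPM with TN and at 1239, 1622, and 1696 CPM with DMSO, without overlap. The log2 fold changes were -0.63 (SE 0.68, adjusted p = 0.605, 0.0703 with the block) and -0.76 (SE 0.39, adjusted p = 0.286, 0.0177 with the block). Without OA replicate 2 the value was -0.11, without OA replicate 1 it was -1.49, and without TN replicate 1 it was -0.36. PDP2 and PDPR had overlapping groups in both comparisons and log2 fold changes between -0.14 and 0.06. A length of 24.4% of the PDPR transcript has a copy at 98% identity or more elsewhere, among them the pseudogene PDPR2P, so that its counts are uncertain.

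Pyruvate carboxylase (PC) makes oxaloacetate from pyruvate in mitochondria. PC was at 12.9, 15.1, and 12.8 CPM with DMSO and 17.2, 48.1, and 25.2 CPM with OA. In the TN comparison, it was at 15.9, 9.79, and 9.35 CPM with DMSO and 40.9, 23.5, and 19.7 CPM with TN. All 6 treated libraries were above their controls, and the highest value of each stressor was in the library that stood apart. The log2 fold change was 1.15 with OA (SE 0.39, adjusted p = 0.127, 0.0163 with the block) and 0.62 without OA replicate 2. It was 1.26 with TN (SE 0.36, adjusted p = 0.0793, 0.0020 with the block) and 0.92 without TN replicate 1. The mitochondrial malic enzyme ME2, in contrast to ME1, was not called under the block, with log2 fold changes of -0.40 and -0.30 and a low of 13.4 CPM in OA replicate 2. The sign of ME2 rested on single libraries, since the value was 0.04 without OA replicate 2, -1.01 without OA replicate 1, and 0.0074 without TN replicate 1.

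Citrate synthase (CS) joins acetyl-CoA and oxaloacetate. Its level was 98.4, 134, and 105 CPM with DMSO and 62.6, 80.2, and 76.9 CPM with OA. With TN, it was 93.2, 54.2, and 49.6 CPM next to 117, 86.3, and 95.5 CPM with DMSO. The groups were separate with OA and overlapped with TN, and the log2 fold changes were -0.62 (adjusted p = 0.168, 0.032 with the block) and -0.60 (adjusted p = 0.258, 0.0234 with the block). ACO1, the cytosolic aconitase that also acts as an iron regulatory protein, was lower in every OA library than in its controls, with a log2 fold change of -0.41 (adjusted p = 0.299, 0.118 with the block), and was at -0.10 with TN.

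IDH3A, IDH3B, and IDH3G form the NAD-dependent isocitrate dehydrogenase of the cycle. The catalytic subunit IDH3A was at 74.0, 54.5, and 69.0 CPM with DMSO and 49.1, 29.7, and 29.9 CPM with OA. With TN, it was at 27.1, 45.5, and 61.7 CPM next to 69.8, 77.3, and 78.9 CPM with DMSO. IDH3A was below its controls in every treated library, with log2 fold changes of -0.86 (adjusted p = 0.125, 0.0100 with the block) and -0.75 (adjusted p = 0.188, 0.0215 with the block), the latter -0.44 without TN replicate 1. IDH3B was at 166, 277, and 189 CPM with DMSO and 99.3, 174, and 138 CPM with OA. For TN, IDH3B was at 238, 152, and 141 CPM with DMSO and 194, 78.9, and 88.3 CPM with TN. Its groups overlapped, each treated library was below the DMSO library of its number, and its log2 fold changes of -0.62 and -0.55 passed with the block (adjusted p = 0.0312 and 0.0245), and that with OA also with the GC offset alone (adjusted p = 0.0417). Leaving out DMSO replicate 2 gave IDH3B a value of -0.34 with OA, and with TN it ran from -1.04 without TN replicate 1 to -0.30 without DMSO replicate 1. IDH3G had log2 fold changes of -0.20 and 0.29 and was not called. IDH2, the mitochondrial counterpart of IDH1, had log2 fold changes of -0.46 (SE 0.30, adjusted p = 0.393) and -0.51 (SE 0.30, adjusted p = 0.35), the sign opposite to that of IDH1 in both comparisons. Without single libraries, IDH2 ran from -0.79 to -0.26 with OA and from -0.85 to -0.32 with TN, and with TN it was called without TN replicate 1 (adjusted p = 0.0188) and with the GC offset and the block (adjusted p = 0.0182).

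The 2-oxoglutarate dehydrogenase complex is built from OGDH or its relative OGDHL, the succinyltransferase DLST, and DLD. DLST was at 65.5, 86.0, and 75.9 CPM with DMSO and 36.2, 53.4, and 45.01 CPM with OA. With TN, it was at 66.7, 39.2, and 40.2 CPM next to 81.5, 64.9, and 68.7 CPM with DMSO. The OA groups did not overlap, and the log2 fold changes were -0.76 (adjusted p = 0.122, 0.0129 with the block) and -0.56 (adjusted p = 0.25, 0.0293 with the block). DLST with OA was also called with scaling to total counts, in 1 fit of all 12 libraries, and with the GC offset with or without the block. With TN, DLST was also called with the GC offset and the block, and without TN replicate 1. OGDH had log2 fold changes of 0.55 (SE 0.32) and 0.01 (SE 0.31), OGDHL of -0.14 and -0.45, and all of these overlapped their controls. OGDH with OA was at 0.19 without OA replicate 2, and OGDHL with OA ran from -0.53 to 0.06 without single libraries. With TN, OGDHL was called without TN replicate 1, at -0.77 (adjusted p = 0.0336), and with the GC offset and the block (adjusted p = 0.046).

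Succinyl-CoA ligase makes ATP or GTP, depending on whether SUCLA2 or SUCLG2 joins the shared subunit SUCLG1. SUCLA2 had the lowest log2 fold change of the 34 genes with OA, -1.10 (SE 0.48, adjusted p = 0.214, 0.0044 with the block). It was at 68.8, 35.4, and 49.3 CPM with DMSO and 38.7, 9.98, and 22.6 CPM with OA. The groups overlapped, and the value was -0.71 without OA replicate 2 and -1.66 without OA replicate 1. With TN, SUCLA2 was at 17.7, 47.1, and 43.7 CPM next to 47.2, 58.5, and 54.5 CPM with DMSO, and its log2 fold change was -0.56 (adjusted p = 0.4, 0.0705 with the block) and -0.18 without TN replicate 1. SUCLG2 was at 70.9, 28.1, and 47.7 CPM with DMSO and 47.2, 12.9, and 33.1 CPM with OA. Around TN, SUCLG2 was at 37.0, 72.6, and 72.9 CPM with DMSO and 24.7, 44.8, and 50.9 CPM with TN. Its groups overlapped, while each treated library was below the DMSO library of its number, and the log2 fold changes of -0.65 and -0.60 passed only with the block (adjusted p = 0.0239 and 0.0192). For SUCLG2 with OA, the value was -1.10 without OA replicate 1, -0.26 without OA replicate 2, and -0.22 without DMSO replicate 1, and with TN it was -0.29 without TN replicate 1. SUCLG1 had log2 fold changes of -0.34 and -0.22 with overlapping groups.

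Malate dehydrogenase exists as a cytosolic (MDH1) and a mitochondrial (MDH2) enzyme, which together carry reducing equivalents across the inner membrane. MDH1 was at 342, 303, and 286 CPM with DMSO and 197, 183, and 204 CPM with OA. In the TN comparison, it was at 359, 320, and 347 CPM with DMSO and 262, 254, and 271 CPM with TN. The groups were separate in both comparisons, and replicates of a group lay close together. The log2 fold changes of MDH1 were -0.67 (SE 0.21, adjusted p = 0.105, 0.0248 with the block) and -0.38 (SE 0.17, adjusted p = 0.228, 0.0625 with the block), whereas those of MDH2 were -0.13 and -0.14 with overlapping groups. MDH1 with OA was also called by DESeq2, in 1 fit of all 12 libraries, and with the GC offset with or without the block (adjusted p = 0.0178 to 0.0418 over these settings). ATP citrate lyase (ACLY), which makes cytosolic acetyl-CoA from exported citrate, was at 339, 628, and 402 CPM with DMSO and 213, 404, and 284 CPM with OA. Next to TN, ACLY was at 589, 334, and 324 CPM with DMSO and 376, 190, and 184 CPM with TN. Its groups overlapped, but each treated library was below the DMSO library of its number, and the log2 fold changes of -0.60 and -0.73 passed with the block (adjusted p = 0.0346 and 0.0047). Without single libraries, the value of ACLY ran from -0.90 to -0.27 with OA, the smallest without DMSO replicate 2, and from -1.11 without TN replicate 1 to -0.41 without DMSO replicate 1 with TN.

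Levels were also ordered per length of the canonical transcript. In the DMSO libraries of OA, PDP1 was followed by MDH1 (240 CPM per kb), IDH3B (137), MDH2 (119), and ACLY (106), and the same 5 genes led in the same order in the DMSO libraries of TN. The lowest were PDK1 (0.629 and 0.981 CPM per kb) and PDK4 (0.308 and 0.779 CPM per kb). Which strand was counted is not given in the sources used here, and without strand, reads of a gene and of an overlapping gene on the other strand cannot be told apart. Such an overlap covers 38.8% of the exons of IDH3A (ACSBG1 and CIB2), 38.6% of PDK2 (SAMD14), 22.3% of PDPR (ENSG00000247228), 21.8% of MPC2 (DCAF6), 19.3% of PDHA1 (MAP3K15), and 13.3% of DLAT (PIH1D2). Copies at 95% identity or more cover 93.8% of the DLST transcript (DLSTP1), 55.3% of SUCLG2 (SUCLG2P2), and 46.1% of CS, and their counts are less certain for that reason.

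To compare the stressors, each with its own DMSO libraries, the change with OA was set beside the change with TN. The sign was the same for 31 of the 34 genes, 22 lower and 9 higher, compared with 81.1% of the 14071 genes tested in both. The genes of opposite sign were IDH3G, PDK2, and PDPR, none of which was called in either comparison. Without TN replicate 1, their values with TN were -0.11, -0.023, and -0.20. Among the fits without single libraries, the opposite sign of IDH3G and PDK2 rested on that library. PDPR with TN changed sign in 3 of the 6 such fits. Signs of small changes among the 31 genes were not firm either. OGDH with TN changed sign in 3 of the 6 fits and was -0.26 without TN replicate 1. The groups did not overlap in both comparisons for 6 lower genes and 3 higher genes, and the same held for 10.2% and 10% of the genes tested in both. With the replicate block, 12 of the 34 were called in both comparisons, next to 18.9% of the genes tested in both. Across the 34 genes, the log2 fold changes of the stressors had a Pearson correlation of 0.89, and across the genes tested in both it was 0.80. These correlations are across genes, which are not independent replicates, and they are given as a description.

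**Figure D5:**
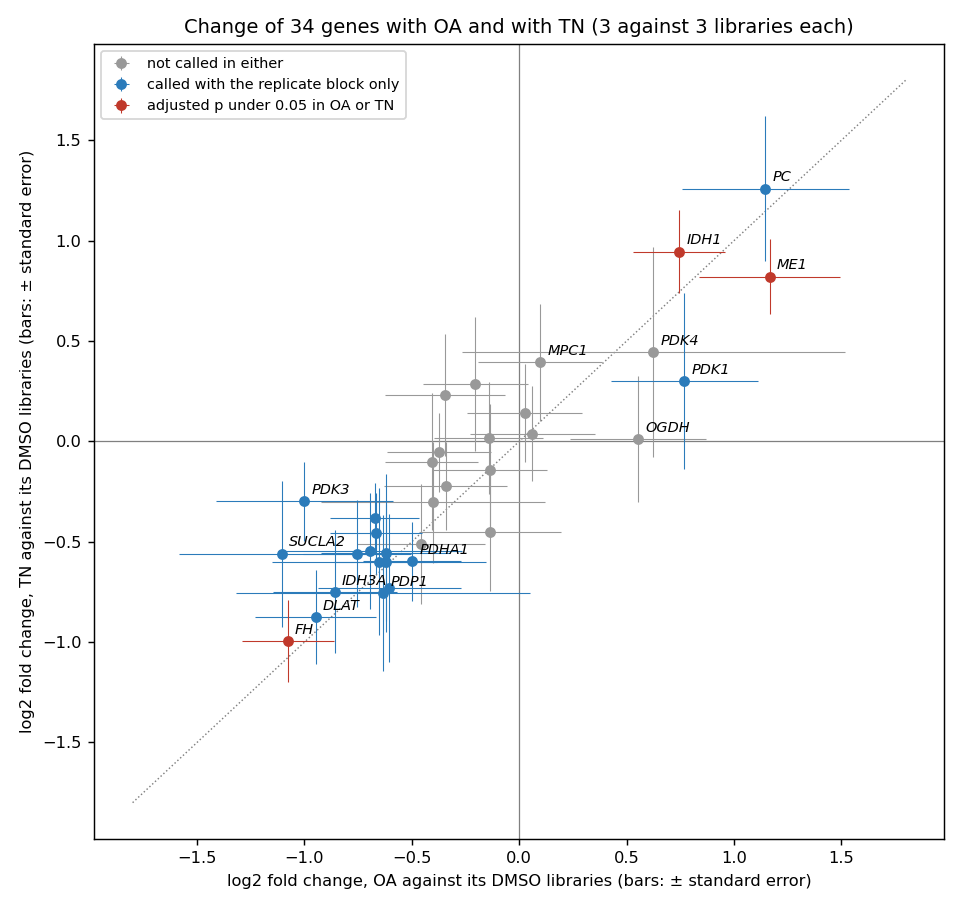
Log2 fold change with TN (y axis) against that with OA (x axis) for the 34 genes, each against its own 3 DMSO libraries, with bars of ± 1 standard error and a dotted line of equal change. Most genes lie in the lower left, FH among them, while PC, ME1, and IDH1 lie in the upper right, and the correlation over the 34 genes is 0.89.

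A contrast over the 12 libraries tested whether the change with OA differed from the change with TN. Of the 15429 genes tested, 0 were called, 0%, by edgeR, with 348 at an unadjusted p under 0.05, and DESeq2 called 2. In other settings of edgeR, 25 genes were called with no filter, 5 with the GC offset and the block, and 4 without OA replicate 2. Among the 34 genes, 0 were called by either tool and 0 had an unadjusted p under 0.05, the lowest being 0.145. For FH, the OA change minus the TN change was -0.15 on the log2 scale, with a 95% interval from -0.68 to 0.38. It was -0.27 for IDH1 (-0.94 to 0.40), 0.25 for ME1 (-0.53 to 1.03), and -0.19 for PC (-1.30 to 0.92). The largest differences in size were those of PDK3, -0.74 (-1.84 to 0.35), and PDK2, -0.63 (-1.50 to 0.25), and that of PDK1 was 0.38 (-0.95 to 1.72). All of these intervals include 0 and are wide enough to include differences of 0.38 or more in size, so that they do not show that the stressors act alike.

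Genes that feed, drain, or equip the cycle but are not among the 34 were taken as a list of 33, of which 28 passed the filter. In both comparisons, the same 4 were called, next to 4.48% of all genes with OA and 6.99% with TN. The list was chosen with earlier results of these data known, so these shares are not a test of the list. PCK2, the mitochondrial phosphoenolpyruvate carboxykinase, was at 19.2, 29.2, and 28.2 CPM with DMSO and 128, 183, and 170 CPM with OA, and rose by 2.65 on the log2 scale (SE 0.28, adjusted p = 0.0116, edgeR). With TN, PCK2 was at 253, 171, and 162 CPM next to 28.9, 29.0, and 28.1 CPM with DMSO, and rose by 2.77 (SE 0.25, adjusted p = 0.0030, edgeR). These were the largest changes of the list, and no treated library came near its controls. GOT1, the cytosolic aspartate aminotransferase, rose by 2.00 with OA (adjusted p = 0.0393) and 1.58 with TN (adjusted p = 0.0115). With OA, GOT1 was at 410, 1092, and 433 CPM, far highest in OA replicate 2, next to 141, 195, and 147 CPM with DMSO. GPT2, the mitochondrial alanine aminotransferase, which makes or uses pyruvate, rose by 1.11 (adjusted p = 0.04995) and 1.05 (adjusted p = 0.0461). LDHA, which turns pyruvate into lactate, was at 709, 736, and 674 CPM with DMSO and 337, 260, and 350 CPM with OA, and it fell by 1.16 (adjusted p = 0.0333) and by 1.32 with TN (adjusted p = 0.0130). The median of the 28 genes was -0.43 with OA and -0.30 with TN. With the replicate block, 4 were higher and 9 lower with OA, next to 11.7% and 15% of all genes, and 4 were higher and 6 lower with TN, next to 11.8% and 15.3%. Without any 1 of the DMSO libraries of OA, 0 of the 28 were called, without OA replicate 3 it was 1, and without single libraries of the TN comparison it was 1 to 6. Counts over all genes in these fits are those given above.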

How the data were processed

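Reads were aligned to hg38 with STAR by the authors, who deposited raw counts per gene without normalization, in 1 table per stressor with 6 libraries each. The labels name a stranded kit for total RNA, the study calls the assay mRNA-seq, and which strand column was kept is not given in the sources used here. Deposited tables that hold only the authors' own comparisons from DESeq2 (log2 fold changes, p-values, and mean levels) were not used.

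The 34 genes, the list of 33 neighbouring genes, and the markers were chosen with earlier results of these data known. Counts were normalized by TMM within each table, filtered with filterByExpr, and tested in R 4.3.3 with edgeR 4.0.16 (quasi-likelihood F test, two-sided), 3 against 3 libraries, without a replicate term. P-values were adjusted by the Benjamini-Hochberg method over all tested genes. CPM are counts scaled to a common library size after TMM within a table, so levels are not compared between tables. The standard error (SE) of a log2 fold change is its size over the root of the F statistic. OA and TN were contrasted in 1 fit of 12 libraries. The scripts were tested on simulated data.

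Same-numbered DMSO and treated libraries deviated from their group means with correlations across genes of 0.71, 0.61, and 0.11 for OA and 0.69, 0.47, and 0.51 for TN. All exceeded 0.1, so equal numbers were treated as pairs, which rests on this check and on the shared numbers in the labels alone. Libraries of TN numbered 2 and 3 also deviated together across numbers (0.44 and 0.51), and DMSO replicate 3 of OA deviated more with OA replicate 1 (0.17) than with its own number. No libraries of a group agreed within sampling noise (chi-square per gene at least 6.25).

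As alternatives, DESeq2 1.42.0 was run in place of edgeR, and edgeR with the size factors of DESeq2, total counts with or without RN7SL1, ACTB as the scale, no filter, a minimum of 10 counts in each library, the replicate block, 1 fit of all 12 libraries, a GC offset in each library with or without the block (loess span 0.3, genes with a mean count of at least 20), and fits without each library. Per-library values are given for genes called with or without the block, for the 5 genes with the lowest p in each comparison, and for the 4 kinases, and neighbouring genes are named where called. Gene positions and overlaps are from Gencode on hg38.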

Additional observations from a re-analysis of the deposited data

How the results depend on the processing

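Of the 34 genes, 1 was called with OA and 3 with TN, and the numbers depended on the settings, as did those over all genes, which were 658 and 1009. With OA, DESeq2 called 6 of the 34 (1927 of all genes), scaling to total counts 2 (747), scaling to ACTB 3 (1425), no filter 2 (1572), the replicate block 17 (3914), 1 fit of all 12 libraries 6 (1681), the GC offset 11 (2245), and the GC offset with the block 14 (3681), and fits without 1 library called 0 to 3 (3 to 1179). With TN, DESeq2 called 6 (2162), the replicate block 14 (3915), the GC offset with the block 14 (4685), and fits without 1 library 0 to 11 (151 to 2361), the highest without TN replicate 1. Scaling to total counts left 2 lower (FH and PDHA1) and 0 higher genes with TN (1404 of all genes). Total counts without RN7SL1 left the same 2 lower and 0 higher (1321). The median of all genes with TN was -0.18 and -0.12 under these scalings. Of the neighbouring genes, 4 were called with each stressor. With OA, the replicate block called 13, 1 fit of all libraries 8, the GC offset 8, the GC offset with the block 14, and fits without 1 library 0 to 4. With TN, the replicate block called 10, the GC offset with the block 12, and fits without 1 library 1 to 6. The median log2 fold change of the 34 genes with OA was -0.40, and it was -0.61 with scaling to total counts, -0.51 with total counts without RN7SL1, 0.026 with scaling to ACTB, -0.47 in 1 fit of all libraries, and -0.46 to -0.28 without 1 library. With TN it was -0.30, and it was -0.42 with total counts, 0.053 with ACTB, -0.11 with the GC offset, and -0.13 with the GC offset and the block. The cause of these shifts was not tested. The share of PDK1 among the kinases was 4.99 percentage points higher with OA, 17.3 without the division by length, and 7.57 with division by the longest transcript, a setting chosen after seeing the data. The difference between the stressors gave 0 called genes among the 34 in every setting run. For single genes, 298 values with OA and 308 with TN kept their direction and side of the threshold over the 11 settings, 55 and 30 newly passed, 2 and 8 were lost, and 18 and 28 changed sign in genes that were not called. At these depths, PDK4 had 2 to 40 counts per library in the OA comparison.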
